A study of Mus musculus with 12 samples.

Results

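Desmosomes are spot-like junctions that tie the keratin filaments of neighbouring epithelial cells together. A set of 10 genes of this junction was followed here, namely the desmocollins Dsc1, Dsc2 and Dsc3, the desmogleins Dsg1a, Dsg2 and Dsg3, the plaque proteins Dsp, Pkp1 and Pkp3, and the tetraspan membrane protein gene Perp. They were chosen by name, as the rows of the deposited count table that carry these symbols, and all 10 were found among 25210 genes. The libraries came from mammary epithelial organoids of FVB/N virgin female mice aged 8 to 11 weeks, embedded in growth-factor reduced Matrigel in minimal medium. For 7 days the organoids received the vehicle dimethyl sulfoxide (DMSO) or CHIR99021, an inhibitor of the kinase GSK3 that activates WNT/CTNNB1 signalling, at 1, 1.5 or 3 µM. Each of 3 cultures, from 3 animals, received all 4 treatments, so there were 12 libraries and 3 per group. No transgene or deletion is named in the labels, and growth factor reduction and the minimal medium were shared by all groups.

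In a desmosome, desmocollins and desmogleins span the membrane and bind their counterparts on the next cell. Inside the cell they hold plakoglobin (Jup) and the plakophilins, which in turn hold desmoplakin (Dsp), the protein that reaches the keratin filaments. Dsc2 and Dsg2 are the cadherins of simple epithelia, such as the luminal layer of the mammary gland. Dsc3 and Dsg3 are known from the lower layers of stratified epithelia such as epidermis, and Dsc1 and the Dsg1 genes from its upper, differentiated layers. Pkp2 is a plakophilin of simple epithelia, whereas Pkp1 is prominent in stratified ones. Pkp3 was set against Pkp2 in the ratios below, as Pkp1 was. Perp is a target of p63 and is needed for desmosomes in stratified epithelium.

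Total counts per library ran from 10.1 to 24.5 M (mega), and all 10 genes passed the filter on low counts, which left 15316 genes to test. The epithelial genes Epcam and Cdh1 were well expressed in every library, at 380 to 760 and 366 to 847 CPM (counts per M counts, on library sizes scaled with the TMM method). They were the 2 of 6 epithelial markers not called at 3 µM, where Krt5 and Krt14 rose and Krt8 and Krt18 fell. The sum of the 6 was 3269 to 5640 CPM in DMSO and 16283 to 33005 CPM at 3 µM. Of 6 luminal markers (Krt8 and Krt18 among them) 4 were lower at 3 µM, and their sum was 1844 to 3080 CPM in DMSO and 1548 to 1569 CPM at 3 µM. Markers of other cell types were also present, and none of the 6 fibroblast, 6 macrophage, 6 endothelial or 6 adipocyte markers was at 0 in a whole group. The summed level of the fibroblast markers was 1548, 7165 and 20187 CPM in DMSO in cultures 1, 2 and 3. At 3 µM it was 164, 923 and 4484 CPM, lower in each culture. The 6 single markers had adjusted p-values of 0.107 to 0.838 in the test used below (edgeR), which does not pair the cultures. All 6 differed between cultures, and no paired test of them is given here. The macrophage sum was 259 to 2544 CPM in DMSO and 39.0 to 117 CPM at 3 µM (5 of 6 lower), and the adipocyte sum 3450 to 9141 and 37.0 to 242 CPM (6 of 6 lower). The endothelial sum was 244 to 507 and 28.0 to 90.3 CPM (5 of 6 lower), and that of 6 myoepithelial markers 687 to 1029 and 18.4 to 33.2 CPM (6 of 6 lower). Of all genes tested, 27.7% were called lower at 3 µM. In bulk RNA, fewer cells of a type and less RNA per cell cannot be told apart. The part of these cell types in the changes described below was not tested, but the ratio of each gene to Cdh1 in the same library is given further on.

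The 6 cadherin genes lie in one cluster on chromosome 18 that spans 643.592 kb (GRCm38) and holds 9 genes, all of them desmocollins or desmogleins. Dsc3, Dsc2 and Dsc1 stand first, on the minus strand, followed on the plus strand by Dsg1c, Dsg1a, Dsg1b, Dsg4, Dsg3 and Dsg2. The nearest genes of the table outside the cluster are Gm15328 and Gm7670 on one side and Gm16090 and Ttr on the other. Gm16090 is an antisense transcript that overlaps Dsg2. Whether the counting used the strand is not given in the sources used here, so Dsg2 may hold some counts of its partner.

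Among the desmocollins, Dsc1 (ENSMUSG00000044322, 20084703 to 20114773) was nearly silent in DMSO, with 17, 1 and 7 counts, or 0.755, 0.102 and 0.377 CPM, in cultures 1, 2 and 3. It was at 15.9, 15.6 and 4.37 CPM at 1 µM, 122.7, 145.6 and 53.5 CPM at 1.5 µM and 245.7, 199.6 and 127.0 CPM at 3 µM. The DMSO libraries did not overlap with those of any dose, while the libraries at 1.5 and 3 µM overlapped. Its log2 fold change against DMSO was 4.64 ± 0.716 at 1 µM, 7.80 ± 0.749 at 1.5 µM and 8.63 ± 0.765 at 3 µM (SE). The adjusted p-values were 0.0344, 0.000211 and 1.4e-05 (edgeR's quasi-likelihood test, Benjamini-Hochberg over all genes tested). From 1.5 to 3 µM the change of 0.83 ± 0.504 did not pass (adjusted p = 0.237), although it passed with the replicate block, in which culture is a term of the model (0.91, adjusted p = 0.0105).

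Dsc2 (ENSMUSG00000024331, 20030633 to 20059554), a cadherin of simple epithelia, did not stay level. It was at 9.69, 4.06 and 12.9 CPM in DMSO, 25.0, 16.4 and 25.8 CPM at 1 µM, 40.5, 41.1 and 55.3 CPM at 1.5 µM and 151.2, 169.2 and 241.1 CPM at 3 µM. The 4 groups did not overlap at any step. Dsc2 rose by 2.33 ± 0.365 on the log2 scale at 1.5 µM (SE, adjusted p = 0.00175, edgeR) and by 4.37 ± 0.395 at 3 µM (adjusted p = 1.54e-05). The difference at 1 µM, 1.31 ± 0.358, did not pass (adjusted p = 0.177) but did with the replicate block (adjusted p = 0.0196).

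Dsc3 (ENSMUSG00000059898, 19960930 to 20002097) had the highest level per exon length of the desmocollins in DMSO, where it was at 42.4, 22.7 and 45.4 CPM. It was at 85.2, 70.9 and 78.1 CPM at 1 µM, 183.8, 191.4 and 144.1 CPM at 1.5 µM and 425.6, 345.2 and 395.8 CPM at 3 µM, again with no overlap between groups. Its log2 fold changes were 1.08 ± 0.226, 2.23 ± 0.232 and 3.39 ± 0.243 at the 3 doses (SE, adjusted p = 0.108, 0.000307 and 4.34e-06 in edgeR). At 1 µM the call appeared with the replicate block (adjusted p = 0.0230).

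**Figure D1:**
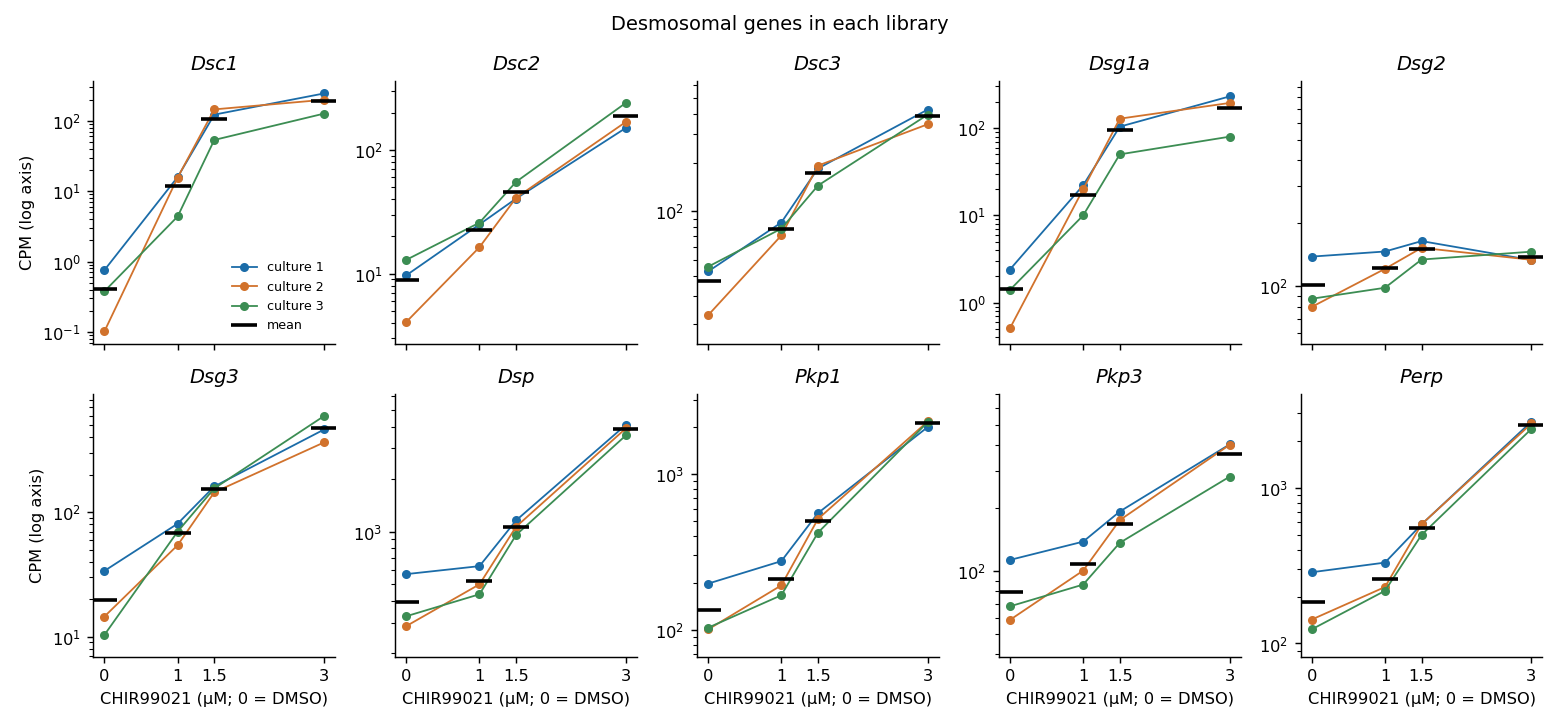
CPM of the 10 desmosomal genes (log axis, a separate scale in each panel) against the dose of CHIR99021 in µM, with DMSO at 0. Each coloured line joins the 4 libraries of a culture, and black bars are means of 3 libraries. Dsg2 stays within 79.7 to 164.4 CPM, whereas the mean of Dsc1 goes from 0.411 to 190.8 CPM, and culture 3 lies below the other cultures for Dsc1 and Dsg1a at each dose of CHIR99021.

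Of the desmogleins, Dsg1a (ENSMUSG00000069441, 20310811 to 20343350) was close to Dsc1 in its course. It was at 2.40, 0.508 and 1.40 CPM in DMSO (54, 5 and 26 counts), 22.1, 19.9 and 9.999 CPM at 1 µM, 104.0, 128.4 and 50.1 CPM at 1.5 µM and 231.0, 194.4 and 79.8 CPM at 3 µM. DMSO did not overlap with any dose, and 1.5 and 3 µM overlapped. Dsg1a rose by 5.91 ± 0.648 on the log2 scale at 1.5 µM and by 6.75 ± 0.667 at 3 µM (SE, adjusted p = 0.000412 and 2.59e-05, edgeR). The change from 1.5 to 3 µM, 0.84 ± 0.499, did not pass (adjusted p = 0.228), but passed with the replicate block (0.80, adjusted p = 0.0230). The 3.48 ± 0.606 at 1 µM likewise passed only with the block among these 2 fits (adjusted p = 0.0605 without and 0.00351 with it). Of the 50-base stretches of Dsg1a transcripts, 35.0% occur also in Dsg1b or Dsg1c, so the counts of these copies could be split in ways not known here. The other 5 cadherins named above and below share none with their relatives.

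Dsg2 (ENSMUSG00000044393, 20558074 to 20604521), the desmoglein of simple epithelia, was the exception. It was at 138.6, 79.7 and 87.2 CPM in DMSO, 146.6, 121.2 and 98.4 CPM at 1 µM, 164.4, 152.7 and 134.2 CPM at 1.5 µM and 133.4, 133.9 and 146.4 CPM at 3 µM. Every dose overlapped with DMSO, in which the library of culture 1 was the high one. The log2 fold changes were 0.26 ± 0.205, 0.56 ± 0.206 and 0.44 ± 0.206 (SE, adjusted p = 0.691, 0.0667 and 0.0932 in edgeR), and the slope per µM was 0.15 ± 0.0748 (adjusted p = 0.112). With the replicate block the increases at 1.5 and 3 µM passed the threshold, at 0.59 (adjusted p = 0.0154) and 0.48 (adjusted p = 0.0251). Without the DMSO library of culture 1 they passed as well, at 0.85 (adjusted p = 0.00646) and 0.73 (adjusted p = 0.00429).

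Dsg3 (ENSMUSG00000056632, 20510304 to 20541310) lies next to Dsg2 in the cluster and rose strongly. It was at 33.8, 14.5 and 10.3 CPM in DMSO, 81.1, 54.5 and 70.0 CPM at 1 µM, 161.5, 145.0 and 155.8 CPM at 1.5 µM and 463.9, 365.3 and 595.5 CPM at 3 µM. No groups overlapped. The log2 fold changes were 1.80 ± 0.379, 2.97 ± 0.394 and 4.59 ± 0.423 (SE, adjusted p = 0.108, 0.000835 and 1.7e-05 in edgeR, and 0.0196 at 1 µM with the replicate block).

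The plaque proteins and Perp had, in the mean, higher levels per exon length in DMSO than the cadherins. Dsp (ENSMUSG00000054889, chromosome 13, 38151328 to 38198577), the link to keratin, was at 569.3, 286.4 and 326.2 CPM in DMSO, 632.8, 497.6 and 436.3 CPM at 1 µM, 1158, 1066 and 955.7 CPM at 1.5 µM and 4101, 3914 and 3568 CPM at 3 µM. The libraries at 1 µM overlapped with DMSO, and the later steps did not overlap. Dsp rose by 1.43 ± 0.243 on the log2 scale at 1.5 µM and by 3.29 ± 0.260 at 3 µM (SE, adjusted p = 0.00251 and 6.85e-06, edgeR), while the value at 1 µM was 0.41 ± 0.239 (adjusted p = 0.558). Dsp overlaps Gm10129 on the opposite strand.

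Of the 10 genes, 1 (Dsp) is in the RefSeq promoter table of build GRCm38.p6 that was used. Its 250 bases before the transcript start are shown with those of the plakoglobin gene Jup, another plaque gene that rose and was picked for this after its values had been seen. Letters in capitals match the GC box GGGCGG or the AP-2 motif GCCNNNGGC on either strand, and one match of each kind overlap in Dsp.
Dsp, chr13:38151044-38151293, plus strand: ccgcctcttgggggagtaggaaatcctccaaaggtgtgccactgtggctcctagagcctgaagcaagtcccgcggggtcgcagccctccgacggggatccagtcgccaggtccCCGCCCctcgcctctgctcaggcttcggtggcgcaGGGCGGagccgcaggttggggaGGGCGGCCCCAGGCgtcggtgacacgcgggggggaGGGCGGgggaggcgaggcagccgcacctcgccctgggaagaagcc
Jup, chr11:100397791-100398040, minus strand: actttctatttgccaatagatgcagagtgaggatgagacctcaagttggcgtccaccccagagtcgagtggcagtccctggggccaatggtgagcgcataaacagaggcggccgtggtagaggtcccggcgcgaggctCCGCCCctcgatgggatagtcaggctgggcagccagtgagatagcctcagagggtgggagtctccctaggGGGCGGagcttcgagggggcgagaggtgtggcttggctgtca
The Dsp window holds 4 GC boxes and 1 AP-2 match, and the Jup window 2 GC boxes and 0 AP-2 matches. Neither window holds the TCF/LEF core CTTTGA or CTTTGT, which says only that these letters are not in the 250 bases. Of 32851 windows of this length, 32.7% hold the GC box, 13.7% the AP-2 motif, 13.8% CTTTGA and 16.5% CTTTGT. The Dsp window is 72.4% G or C.

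Pkp1 (ENSMUSG00000026413, chromosome 1, 135871395 to 135919207), a plakophilin that strengthens desmosomes in stratified epithelium, was at 197.5, 100.1 and 102.7 CPM in DMSO. It was at 275.6, 192.4 and 166.2 CPM at 1 µM, 561.7, 514.7 and 420.2 CPM at 1.5 µM and 2014, 2187 and 2166 CPM at 3 µM. The libraries at 1 µM overlapped with DMSO and the later steps did not. Its log2 fold changes were 0.66 ± 0.271, 1.90 ± 0.278 and 3.99 ± 0.304 (SE, adjusted p = 0.371, 0.00128 and 5.83e-06, edgeR). Pkp1 overlaps Gm36938 on its own strand.

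Pkp3 (ENSMUSG00000054065, chromosome 7, 141078218 to 141090510) moved less. It was at 113.2, 58.5 and 67.9 CPM in DMSO, 138.4, 100.6 and 86.3 CPM at 1 µM, 192.8, 175.4 and 136.6 CPM at 1.5 µM and 403.4, 401.5 and 282.9 CPM at 3 µM. The log2 fold changes were 0.44 ± 0.270, 1.07 ± 0.272 and 2.18 ± 0.281 (SE, adjusted p = 0.586, 0.0162 and 0.000129, edgeR), and groups overlapped up to 1 µM and between 1 and 1.5 µM. The call at 1.5 µM was lost without the DMSO library of culture 2 (adjusted p = 0.0753) or of culture 3 (0.0654) and without the 1.5 µM library of culture 1 (0.0603).

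Perp (ENSMUSG00000019851, chromosome 10, 18845071 to 18857073) was at 286.4, 142.4 and 123.2 CPM in DMSO, 330.3, 230.2 and 217.7 CPM at 1 µM, 581.0, 582.4 and 497.6 CPM at 1.5 µM and 2656, 2580 and 2382 CPM at 3 µM. The cultures at 1 µM overlapped with DMSO and those at the higher doses did not. Perp rose by 1.59 ± 0.291 on the log2 scale at 1.5 µM and by 3.79 ± 0.317 at 3 µM (SE, adjusted p = 0.00362 and 9.84e-06, edgeR), with 0.50 ± 0.285 at 1 µM (adjusted p = 0.550). The step from 1.5 to 3 µM, 2.20 ± 0.297, was the largest of the 10 genes (adjusted p = 0.000834).

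**Figure D2:**
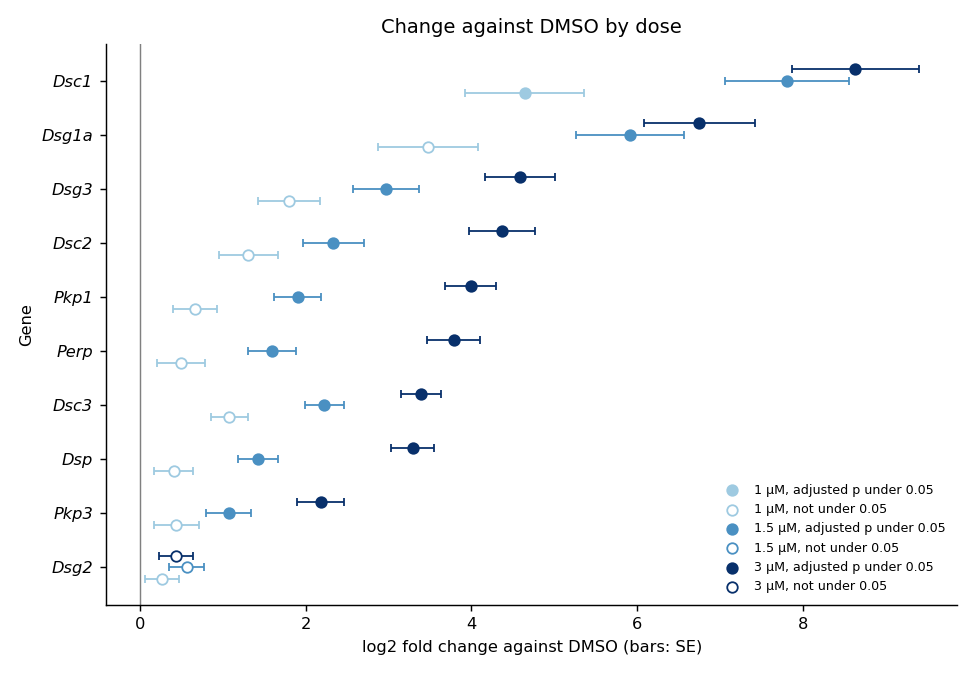
Log2 fold change against DMSO (horizontal axis, bars are SE) of the 10 genes at 1, 1.5 and 3 µM, from edgeR's fit to 12 libraries. This fit does not pair the cultures, and calls with the replicate block are given in the text. Filled points have an adjusted p under 0.05. Only Dsc1 is filled at 1 µM, all but Dsg2 are filled at 1.5 and 3 µM, and the values at 3 µM run from 0.44 for Dsg2 to 8.63 for Dsc1.

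Counted over the set, 9 of 10 genes rose at 3 µM and 0 fell, with a median log2 fold change of 3.89. This stands beside 29.9% of all genes tested that were called higher at that dose (57.5% in either direction) and a median over all genes of −0.03 (−0.23 when scaled by library size only, which left the same 9 of 10 called). At 1.5 µM 9 rose and 0 fell, with a median of 2.06, against 15.4% of all genes called higher and a median of −0.002. Without culture 2 the count at 1.5 µM was 4, namely Dsc1, Dsc2, Dsc3 and Dsg1a, against 2.18% of all genes. With the replicate block all 10 were called higher at 1.5 and at 3 µM, against 22.3% and 34.1% of all genes. At 1 µM 1 gene, Dsc1, rose, against 0.189% of all genes called higher. For the slope per µM 9 were called, all but Dsg2, against 30.2% of all genes with a called positive slope. Together the 10 genes took 0.0975 ± 0.0411% of the DMSO counts (SD, n = 3). This share was 0.152 ± 0.0335% with 1 µM, 0.319 ± 0.0428% with 1.5 µM and 0.915 ± 0.0297% with 3 µM.

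At the lowest dose 5 of the 6 cadherins, all but Dsg2, had larger changes than the plaque genes and Perp. At 1 µM 5 of the 10 genes, Dsc1, Dsc2, Dsc3, Dsg1a and Dsg3, were higher in every library than in any DMSO library, against 11.2% of all genes tested. The same 5 were called higher at 1 µM with the replicate block, against 2.55% of all genes, and in DESeq2, against 2.22%. The log2 fold changes of these 5 cadherins at 1 µM were 1.08 to 4.64, those of Dsp, Pkp1, Pkp3 and Perp were 0.41 to 0.66, and that of Dsg2 was 0.26. The difference between these groups of genes was not tested. The single call of the unblocked fit at 1 µM, Dsc1, was lost without any 1 of 9 libraries, which are those of culture 1 at each of the 4 treatments, those of culture 2 at each of the 4 treatments, and the DMSO library of culture 3. Without the 1.5 or the 3 µM library of culture 3, Dsg1a was called as well (2 genes), and without the DMSO library of culture 1 Dsg3 was called in place of Dsc1.

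Between 1 and 1.5 µM 5 genes rose, Dsc1, Dsc3, Dsg1a, Dsp and Pkp1, against 4.43% of all genes called higher. All 10 were higher in 3 of 3 cultures. The share of all genes that were so was not determined, and the median log2 fold change of all genes at this step was −0.005. Dsc1 had the largest step, 3.16 ± 0.550 on the log2 scale (SE, adjusted p = 0.0136, edgeR), followed by Dsg1a with 2.44 ± 0.527 (adjusted p = 0.0298). The count was 9 with the replicate block, all but Dsg2, against 11.3% of all genes, and 8 in DESeq2, against 7.05%. It was 0 without the 1 µM library of culture 2 and without the 1.5 µM library of culture 1 or 2. It was 1 without the 1 µM library of culture 3, 2 without that of culture 1, and 3 without the 3 µM library of culture 1 or 2. Leaving out whole cultures gave 0 without culture 1, 0 without culture 2 and 3 without culture 3.

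Between 1.5 and 3 µM 7 genes rose, against 17% of all genes called higher. These were Dsc2, Dsc3, Dsg3, Dsp, Pkp1, Pkp3 and Perp, with log2 fold changes of 1.11 to 2.20. Dsc1 and Dsg1a, which had moved most at the lower doses, were the ones with 0.83 and 0.84, and Dsg2 was at −0.13 ± 0.205 (adjusted p = 0.668). Without culture 2 the count was 2 (Dsc2 and Dsc3), against 1.28% of all genes. With the block it was 9, all but Dsg2, against 24.7%.

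Members were then compared with a simple-epithelial gene within each library, as the log2 ratio of counts of 2 genes of one family (prior count 0.5). Pkp3 was not assigned to stratified epithelium above, so its ratio to Pkp2 is not a comparison of stratified with simple members. In DMSO there were 0.0312 to 0.0801 counts of Dsc1 per count of Dsc2, and at 3 µM 0.527 to 1.62. The slope was 1.43 log2 units per µM (exact permutation of the doses within cultures, two-sided, adjusted p = 0.0224 over 6 pairs). This ratio did not climb throughout, since it was highest at 1.5 µM (0.968 to 3.54) and lower at 3 µM in 3 of 3 cultures. Its test missed the threshold when any of the 3 DMSO libraries was left out (adjusted p = 0.0671, 0.0689 and 0.0625 without cultures 1, 2 and 3).

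The ratio of Dsc3 to Dsc2 went the other way. There were 3.51 to 5.54 counts of Dsc3 per count of Dsc2 in DMSO and 1.64 to 2.81 at 3 µM, a slope of −0.35 log2 units per µM (exact permutation, adjusted p = 0.00156). It was 3.02 to 4.32 at 1 µM, lower than in DMSO in 3 of 3 cultures, and 2.60 to 4.66 at 1.5 µM. In culture 3 it was lower at each step, and in all 3 cultures it was lowest at 3 µM. Dsc2 thus gained on Dsc3, a cadherin of the lower layers of stratified epithelium.

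The desmogleins and plakophilins shifted in one direction. Dsg1a per Dsg2 went from 0.00700 to 0.0175 in DMSO to 0.546 to 1.73 at 3 µM, with a slope of 2.11 (exact permutation, adjusted p = 0.00152). Dsg3 per Dsg2 went from 0.119 to 0.244 in DMSO to 0.949 to 1.16 at 1.5 µM and 2.73 to 4.07 at 3 µM, with a slope of 1.42 (exact permutation, adjusted p = 0.000145). Pkp2 itself was at 41.4, 27.5 and 31.1 CPM in DMSO and 26.7, 35.6 and 30.4 CPM at 3 µM, with groups that overlapped and a log2 fold change of −0.11 ± 0.170 (SE, adjusted p = 0.594, edgeR). Pkp1 per Pkp2 went from 3.30 to 4.77 in DMSO to 61.4 to 75.2 at 3 µM (slope 1.44), and Pkp3 per Pkp2 from 2.12 to 2.73 to 9.29 to 15.1 (slope 0.80). Both had an adjusted p of 0.000145 in the exact permutation test, which like that of Dsg3 to Dsg2 comes from the smallest p that the arrangements allow.

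**Figure D3:**
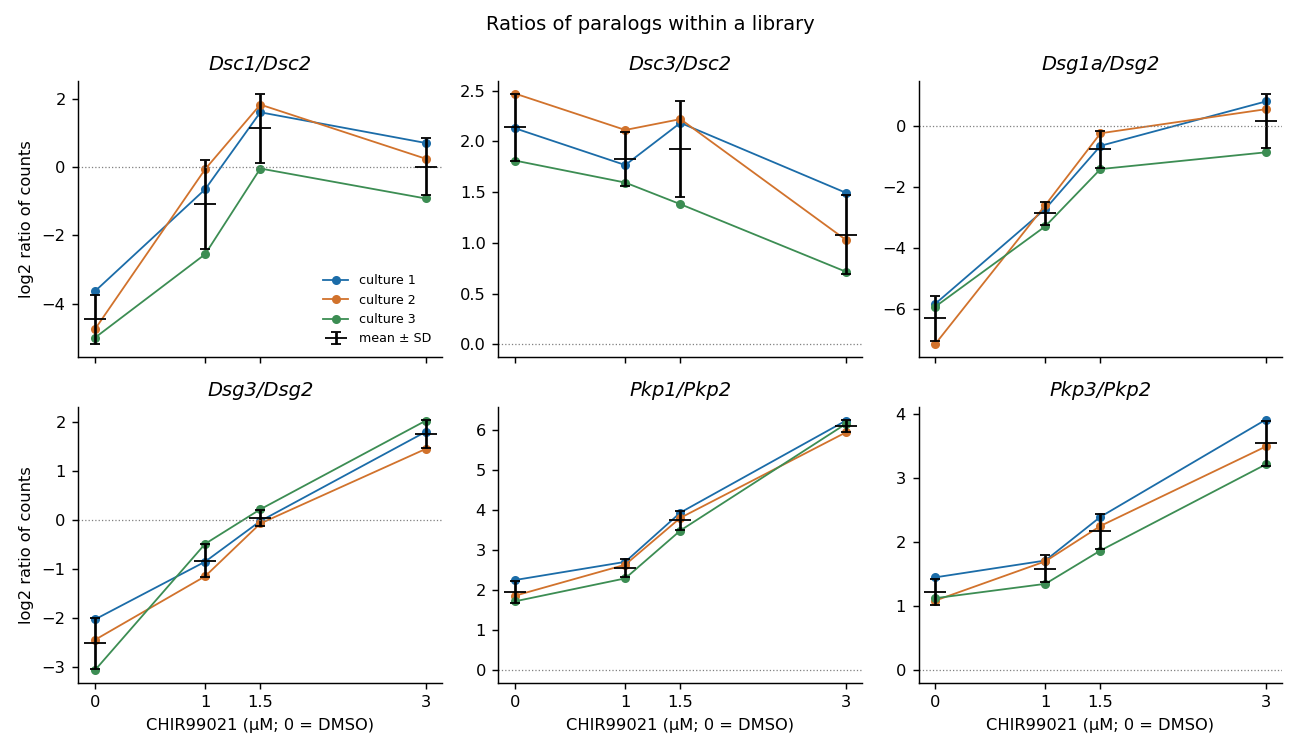
Log2 ratio of the counts of 2 paralogs in a library (vertical axis) against the dose of CHIR99021 in µM, with 1 line per culture and mean ± SD of 3 libraries in black. Dsg1a/Dsg2, Dsg3/Dsg2, Pkp1/Pkp2 and Pkp3/Pkp2 climb in every culture, Dsc3/Dsc2 ends lower than it began, and Dsc1/Dsc2 peaks at 1.5 µM.

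Levels of different genes were compared as CPM per kb of exon. In DMSO the order was Perp (94.3 ± 45.7), Dsp (40.8 ± 15.9), Pkp1 (26.6 ± 11.0), Pkp3 (22.1 ± 8.08), Dsg2 (12.3 ± 3.88), Dsc3 (6.82 ± 2.28), Dsg3 (2.80 ± 1.79), Dsc2 (1.68 ± 0.850), Dsg1a (0.253 ± 0.166) and Dsc1 (0.0815 ± 0.0651) CPM per kb (SD, n = 3). Neighbours overlapped in range except Perp with Dsp, Dsg2 with Dsc3 and Dsc2 with Dsg1a. Dsg2 was thus the highest of the 6 cadherins in DMSO, and at 3 µM it was the lowest in the mean. The order at 3 µM was Perp (1301 ± 72.5), Pkp1 (422.5 ± 18.8), Dsp (399.7 ± 28.0), Pkp3 (100.3 ± 19.1), Dsc3 (72.0 ± 7.52), Dsg3 (68.1 ± 16.6), Dsc1 (37.8 ± 11.9), Dsc2 (35.5 ± 9.02), Dsg1a (29.6 ± 13.9) and Dsg2 (16.7 ± 0.891) CPM per kb. The range of Dsg2 at 3 µM overlapped with that of Dsg1a. Neighbours also overlapped except Perp with Pkp1, Dsp with Pkp3 and Dsg3 with Dsc1.

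**Figure D4:**
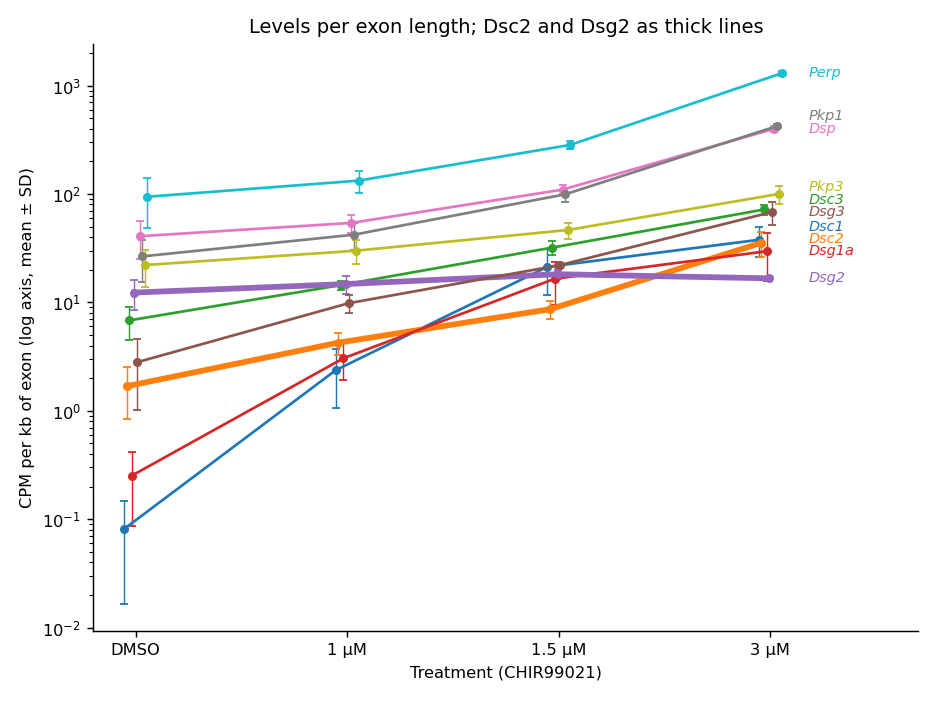
CPM per kb of exon (log axis, mean ± SD of 3 libraries) of the 10 genes in DMSO and at 1, 1.5 and 3 µM CHIR99021, which are spaced evenly. The thick lines are Dsc2 and Dsg2: Dsg2 stays near 12.3 to 18.2 CPM per kb while the other cadherins cross it, and Dsc2 rises from 1.68 to 35.5.

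Relative to Cdh1, the E-cadherin gene of adherens junctions, Dsg2 stayed near its DMSO value. Cdh1 had 462 CPM in DMSO and 612 CPM at 3 µM on average, and its log2 fold change of 0.40 ± 0.235 was not called (SE, adjusted p = 0.165, edgeR). That fit does not pair the cultures, and Cdh1 was higher at 3 µM in each of them. It was at 624.5, 397.0 and 365.9 CPM in DMSO and 675.1, 603.4 and 556.2 CPM at 3 µM in cultures 1, 2 and 3. The log2 ratio of Dsg2 to Cdh1 differed from that in the DMSO library of the same culture by −0.08 ± 0.111, −0.10 ± 0.0931 and 0.04 ± 0.180 (SD, n = 3) for the 3 doses in rising order. For the other 9 genes the same difference at 3 µM was positive in 3 of 3 cultures, from 1.78 ± 0.364 for Pkp3 to 8.55 ± 1.07 for Dsc1. How large a share of all genes gave this was not determined. Dsc2 gave 4.07 ± 0.604, Dsp 2.92 ± 0.225 and Perp 3.45 ± 0.304. At 1 µM the ratios to Cdh1 were 0.09 ± 0.141 for Dsp, 0.10 ± 0.110 for Pkp3, 0.21 ± 0.242 for Perp and 0.34 ± 0.0493 for Pkp1, against 0.77 ± 0.321 for Dsc3 and 1.09 ± 0.397 for Dsc2.

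The cultures differed in 3 of the 10 genes, which is near the share of 28.8% among all genes tested (edgeR with group and culture as terms). Culture 3 was lower than culture 1 by a log2 difference of −1.26 in Dsc1 (adjusted p = 0.00808), −1.22 in Dsg1a (adjusted p = 0.0115) and −0.61 in Pkp3 (adjusted p = 0.0214). The same difference was −0.57 for Cdh1 (adjusted p = 0.0106) and −3.19 for Krt1 (adjusted p = 0.00852), a keratin of upper epidermal layers. At 3 µM Krt1 was at 6743, 5016 and 269.8 CPM and Krt10 at 8798, 6588 and 154 CPM in cultures 1, 2 and 3. Dsc2, Dsg2 and Dsg3 were, in contrast, highest in culture 3 at that dose, at 241.1, 146.4 and 595.5 CPM. Over all groups Dsg2 and Dsg3 were lower in culture 3 than in culture 1, by a log2 difference of −0.36 and −0.35. Dsc2 was higher, by 0.40, and none of the 3 was called between cultures. Culture 3 also carried the most fibroblast signal, with a sum of 4484 CPM over 6 markers at 3 µM against 164 and 923 CPM in cultures 1 and 2. All 6 fibroblast and all 6 macrophage markers were higher and all 6 adipocyte markers lower in culture 3 than in culture 1, and their part in these differences was not tested.

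Most other genes of the junction rose as well. Of 8 further desmosome genes, 7 rose at 3 µM and 0 fell, with Pkp2 the exception, against 29.9% of all genes tested called higher. At 1.5 µM 6 rose, against 15.4% of all genes. Dsg1b, the copy next to Dsg1a, was at 1.07, 0.102 and 0.377 CPM in DMSO and 135.3, 122.6 and 103.2 CPM at 3 µM (log2 fold change 7.65 ± 0.502, SE, adjusted p = 2.99e-06, edgeR). Of its 50-base stretches 48.4% are shared with its copies. Dsg1c was also called (adjusted p = 0.00114), but on 0, 0 and 1 counts in DMSO and 15, 14 and 7 at 3 µM, so no fold is given. Jup rose by 2.31 ± 0.225 on the log2 scale (adjusted p = 2.17e-05).

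The corneodesmosome is the form that the junction takes in the cornified layer, where kallikrein proteases cut it. Of 9 genes of this list 7 rose at 3 µM and 1 fell, against 29.9% and 27.7% of all genes tested called higher and lower. The list median was 6.76. Klk7, a kallikrein that cleaves corneodesmosomes, was at 4.75, 1.83 and 1.62 CPM in DMSO and 472.5, 554.9 and 973 CPM at 3 µM (log2 fold change 7.88 ± 0.536, SE, adjusted p = 3.6e-06, edgeR). Klk5, its activator, had 2, 0 and 1 counts in DMSO and 353, 505 and 470 at 3 µM (adjusted p = 3.61e-06). Ctsd, a lysosomal protease, fell by 0.76 ± 0.138 on the log2 scale (adjusted p = 0.00101). St14, named after its values were seen, was the 1 gene not called, with 0.09 ± 0.161 (adjusted p = 0.648).

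In the other junctions, genes were called in both directions, as they were over all genes tested. Of 10 adherens junction genes 4 rose and 1 fell at 3 µM, with a list median of 0.38. Of all genes tested, 57.5% were called at this dose, 29.9% higher and 27.7% lower. The adherens genes that rose were led by Nectin1 (2.04 ± 0.136, SE, adjusted p = 2.99e-06, edgeR) and Cdh3, the P-cadherin gene (0.94 ± 0.208, adjusted p = 0.00316). Vcl, which links adhesions to actin, fell by 0.50 ± 0.136 (adjusted p = 0.00927). Of 9 hemidesmosome genes, which anchor cells to the basement membrane, 5 rose and 2 fell, beside the same shares over all genes. Their median was 1.03. Lama3, a laminin chain gene, rose by 1.63 ± 0.275, and Cd151 and Dst fell by 0.86 ± 0.214 and 0.70 ± 0.207 (log2, SE, adjusted p = 0.000681, 0.00607 and 0.0146, edgeR).

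The keratins, to which desmosomes attach, were counted by type. Of 8 stratified keratins 7 rose at 3 µM and 0 fell, with a median log2 fold change of 6.42, and 1 (Krt15) was not called. Of all genes tested, 29.9% were called higher and 27.7% lower at this dose. Krt1 and Krt10 led, with 12.46 ± 1.87 and 9.77 ± 1.60 (SE, adjusted p = 0.000331 and 0.000563, edgeR), in spite of the low values of culture 3 given above. Of 4 simple keratins Krt7 rose by 1.92 ± 0.344 (adjusted p = 0.000965) and 3 fell, led by Krt19 (−2.11 ± 0.302, adjusted p = 0.000248) and Krt8 (−0.75 ± 0.217, adjusted p = 0.0137). The third was Krt18.

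Of 10 transcription factors known from stratified epithelium, 9 rose at 3 µM and 1 fell. The shares over all genes tested were 29.9% called higher and 27.7% called lower. Grhl3, which acts in epidermal barrier formation, was at 1.69, 0.914 and 1.72 CPM in DMSO and 76.4, 68.9 and 45.3 CPM at 3 µM (log2 fold change 5.41 ± 0.326, SE, adjusted p = 1.87e-06, edgeR). Klf4, another barrier factor, rose by 3.99 ± 0.299 (adjusted p = 5.56e-06). Cebpa fell by 1.75 ± 0.323 (adjusted p = 0.00118). It is also an adipocyte factor, and the adipocyte markers fell as given above, but their part in its fall was not tested.

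The 10 genes differed in the company they kept over the 12 libraries, which share their doses. In log2 CPM, Dsp, Pkp1 and Perp correlated at 1.00 with each other, and Dsc1 with Dsg1a at 1.00, as a description of 12 libraries. Dsg2 had the lowest correlations with the others, from 0.59 with Dsc2 to 0.78 with Dsc1. The gene outside the set most like Dsc1 was 2310042E22Rik (Pearson r = 0.998), which was also the one most like Dsg1a (0.992). For Dsc3 it was Grhl3 (0.991), for Pkp1 Lypd3 (0.996) and for Perp Tgm1 (0.994), the gene of the transglutaminase of the cornified envelope. For Dsc2 it was Eif3f (0.995), for Dsp Srrm1 (0.995), for Pkp3 Fam83g (0.995), for Dsg3 Serpina3h (0.991) and for Dsg2 2010111I01Rik (0.964).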

How the data were processed

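Bulk RNA was measured in 12 libraries (polyadenylated RNA, Trizol and RNeasy, stranded TruSeq, HiSeq 2500, per the labels' protocols). The authors deposited raw read counts per Ensembl gene. The submitters' processing notes name TopHat2 2.1, Bowtie 1.1.0, HTSeq, DESeq2 and GRCm38/mm10. Strand setting, annotation release and the handling of reads with several matches are not given in the sources used here. A second deposited table of log2 values was not used.

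Genes were filtered with filterByExpr, scaled by TMM and tested with edgeR 4.0.16 (R 4.3.3, glmQLFit robust, glmQLFTest, two-sided, a mean per group over 12 libraries). Adjusted p-values are Benjamini-Hochberg over 15316 genes, threshold 0.05. The slope puts DMSO at 0. DESeq2 1.42.0 was an alternative. The script was tested on simulated data. Exon lengths, overlaps and shared 50-base stretches came from GENCODE M21, which holds 24918 of the 25210 identifiers. Replicates of a group differed by more than sampling noise in every pair.

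Replicate numbers pair the libraries, since each is an animal's culture. Deviations from group means correlated at 0.177 to 0.840 in 18 same-number pairs of libraries (median 0.505). The median was −0.21 in 36 others. Deviations within a group cancel out, so positive values in same-number pairs force negative ones in the others. The second median is therefore no separate baseline. The replicate block is given where it changes a call.

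The 10 genes and the 7 gene lists were chosen with earlier results of these data known. Of each list the text names the 2 called genes that rose most and the 2 that fell most at 3 µM. One gene that this rule picks is not reported here. Jup, Pkp2, Cdh1, Epcam, St14, Krt5, Krt14, Krt15 and Krt18 fall outside that rule and were named after their values were seen, or for a ratio. The likeness rule took genes with at least 50 counts on average (log2 CPM, prior count 2).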

Additional observations from a re-analysis of the deposited data

How the results depend on the processing

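At 3 µM against DMSO the count of genes called stayed at 9 or 10 of 10 in every alternative run, and the slope per µM at 9 or 10. Of the other counts, those at 1 µM and between 1 and 1.5 µM depended most on the setting. At 1 µM (main count 1) it was 5 with the replicate block, 5 in DESeq2, 0 with no filter on low counts and 0 with the 2 groups alone. Leaving out libraries or whole cultures gave 0 to 2. From 1 to 1.5 µM (main count 5) it was 9 with the replicate block, 8 in DESeq2 and 3 with no filter, and 0 to 7 with libraries or cultures left out. At 1.5 µM against DMSO (main count 9) it was 4 to 10 with libraries or cultures left out and at 3 against 1.5 µM (main count 7) 2 to 7, in both cases lowest without culture 2. Leaving out libraries both lost and gained calls, and the cause was not tested. With libraries scaled by size only, the same counts as in the main fit were found in each comparison. No call of a single gene turned its direction. Among the 10 genes, the replicate block changed no call beyond those given beside the results and those of Dsc2, Dsg3, Pkp3 and Perp between 1 and 1.5 µM.

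With DMSO and 3 µM alone, the ratio slopes were 1.49 for Dsc1/Dsc2, −0.35 for Dsc3/Dsc2, 2.15 for Dsg1a/Dsg2, 1.43 for Dsg3/Dsg2, 1.39 for Pkp1/Pkp2 and 0.77 for Pkp3/Pkp2. Each then had an exact permutation p of 0.1, the smallest that 3 against 3 libraries allow. The Dsc1/Dsc2 slope was 1.096 to 1.716 with libraries or cultures left out, and its adjusted p reached 0.0851. A prior count of 2 and the fit with no replicate block (100000 resamples) left all 6 ratio slopes past the threshold. Leaving out whole cultures and the ratios to Cdh1 were added after the data had been seen. Dsc1 and Dsg1a rest on few counts in DMSO, which limits the precision of their fold changes.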
